A study of Gallus gallus with 32 samples.

Results

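CD69L is a chicken gene whose symbol stands for CD69-like, after a lectin-like receptor of lymphocytes. It was taken as every probe with the symbol CD69L in the platform's probe table, which is 1 probe (identifier 18.10.7, gene ID 417816) among 19200 spots and 6428 genes with a symbol. The gene was chosen by its line difference, the log2 ratio of fat against lean birds on these same arrays, so that difference is described here and not tested. RNA came from the anterior pituitary gland of chickens from 2 lines, Fat and Lean, which were bred apart for the weight of their abdominal fat. Birds of both lines were 1, 3, 5 or 7 weeks old and grew under 1 standard broiler regimen. This gives 8 groups, 1 for each line and age, each with 4 arrays said to be biological replicates from individual birds. The sex of the birds is not given in the sources used here. Every sample was amplified, labelled with the dye Cy3 and hybridised to a spotted cDNA array together with a Cy5-labelled pool of all 32 RNAs. A value below is a log2 ratio of the sample over that pool, so 0 means the level of the pool and 1 means a doubling.

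In mammals CD69 is a membrane protein of the C-type lectin-like superfamily that appears on lymphocytes soon after they are activated. It holds back the sphingosine 1-phosphate receptor S1PR1, which lets lymphocytes leave a tissue, and so keeps the cells in place. Its gene lies among those of other lectin-like receptors in the natural killer gene complex, where CLEC2D encodes a ligand of a natural killer cell receptor in humans. The pituitary is built of hormone-secreting cells, and its vessels and stroma also bring blood cells and resident immune cells into the extracted RNA. In RNA of a whole gland, fewer cells of a type and less RNA per cell cannot be told apart.

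The files of lean week 7 replicate 2 and fat week 7 replicate 2 name the same scan images, and 54.4% of their spots have the same area and quality score, against at most 1.98% in the other pairs of arrays. Both were left out, so week 7 has 3 arrays a line and 30 arrays in all enter the comparisons. Between 14008 and 16134 spots per array were usable, and 14648 probes were tested, of 5728 genes and a further 5832 probes with no symbol. The hormone transcripts GH, PRL, POMC, TSHB, FSHB and CGA that mark the labelled gland each gave a usable spot on 29 or 30 of the 30 arrays. A usable spot is one that passed the quality marks, as most spots did, so this count alone does not identify the tissue.

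CD69L was lower in fat birds than in lean birds at all 4 ages, by about 2-fold in the mean. At week 1 the lean arrays read 0.32, 0.43, 0.68 and 0.31, and the fat arrays -0.65, -0.30, -1.23 and -0.31. All 4 lean values lay above the pool and all 4 fat values below it. At week 3 the lean arrays read 0.57, 0.47, 0.38 and 0.43, and the fat arrays -0.83, -0.83, -0.51 and -0.19. The lines were again on opposite sides of the pool, and the lean values lay close together. At week 5 the lean arrays read 0.77, 0.42, 0.38 and 0.67, and the fat arrays -0.47, -0.71, -0.51 and 0.09. Here 1 fat array, replicate 4, lay just above the pool and still under every lean array. At week 7 the lean arrays read 0.62, 1.38 and 0.78, and the fat arrays -0.27, 0.23 and 0.31. The lines did not overlap at this age either, although 2 of the 3 fat arrays were now above the pool. The shared scan read -0.51 in the file labelled lean and -0.52 in the file labelled fat, and the line it belongs to is not settled.

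**Figure D1:**
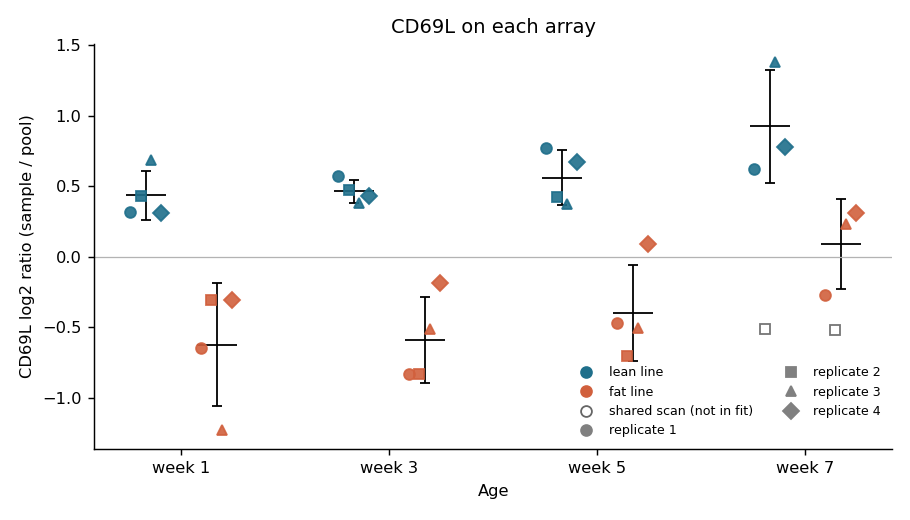
CD69L on each array, as the log2 ratio of sample over pool (vertical axis) by age (horizontal axis). Filled points are arrays, shapes are replicate numbers, bars are the mean and SD of a group (n = 4, or 3 at week 7) and open points are the shared scan. Fat arrays lie below lean arrays at each age.

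The group means were 0.44 ± 0.17 (SD, n = 4) in lean and -0.62 ± 0.44 in fat birds at week 1, and 0.46 ± 0.08 and -0.59 ± 0.31 at week 3. They were 0.56 ± 0.19 and -0.40 ± 0.34 at week 5, and 0.93 ± 0.40 and 0.09 ± 0.32 (n = 3) at week 7. In order of level, the 4 lean groups came first, with week 7 on top, and the 4 fat groups last, with week 1 at the bottom. The SD within groups, pooled over ages, was 0.22 in lean and 0.36 in fat arrays. Within a line, the groups of weeks 1, 3 and 5 lay less than this SD apart from their neighbour in the order, and week 7 stood more than this SD above week 5. Fat minus lean, the mean over ages was -0.98 (SE 0.10, 30 arrays, 1.97-fold). Age by age it was -1.06, -1.05 and -0.96 for the first 3 ages (SE 0.20 each), and -0.84 for week 7 (SE 0.23). Whether the difference varied with age was not tested, because a single sign over the ages was part of how the gene was picked.

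By size, CD69L ranked at place 4 among the falls in fat birds. Between the lines 102 of 14648 probes passed an adjusted p of 0.05 (limma, 0.696%), 64 of them lower in fat birds and 38 higher. These shares describe the comparison that picked the gene, and nothing is read from them for CD69L. Fat arrays all below lean arrays at each of the 4 ages was found for 5 probes (0.0341%), of which 2 carry a symbol, CD69L and SUFU. No probe had all fat arrays above all lean arrays at the 4 ages.

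Arrays of the same age and replicate number gave 15 pairs, and the fat array was lower in 15 of them. The lines did not overlap at any age, so this count was fixed and adds nothing to the above. The size differed between replicate numbers. It was -1.13 for replicate 1, -1.05 for replicate 2 over 3 ages, -1.21 for replicate 3 and -0.57 for replicate 4. The fat arrays of replicate 4 had a mean of -0.02, against -0.61 to -0.50 for the other numbers, while the lean means lay between 0.44 and 0.70. The day given in the file headers allowed the same comparison within a day, for 6 days on which an age was present in both lines. CD69L was lower in fat birds on 6 of 6 days, by values from -1.25 to -0.60. This sign was fixed in the same way, and only the sizes are of use. The value of -0.60 came from the replicate 4 arrays of weeks 1, 3 and 5, which share 1 header day. It is thus largely the small difference of replicate 4 again.

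The sample channel carried the difference. Relative to the median of each array, the Cy3 signal of CD69L was -1.06 (SE 0.19) in fat minus lean birds and the Cy5 signal of the pool -0.09 (SE 0.15). Per pixel and after subtraction of the background, Cy3 intensity ran from 1187 to 4340 with a median of 2519 on lean arrays. On fat arrays it ran from 312 to 4499 with a median of 1280. The raw intensities of the lines thus overlapped. The pool read 1646 at the median on lean and 1670 on fat arrays. Cy3 stood at a median of 6.93 times the local background in lean and 3.33 times in fat arrays, with a lowest value of 1.89. The spot passed the quality marks on all 30 arrays, and dyes were not swapped in this study.

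**Figure D2:**
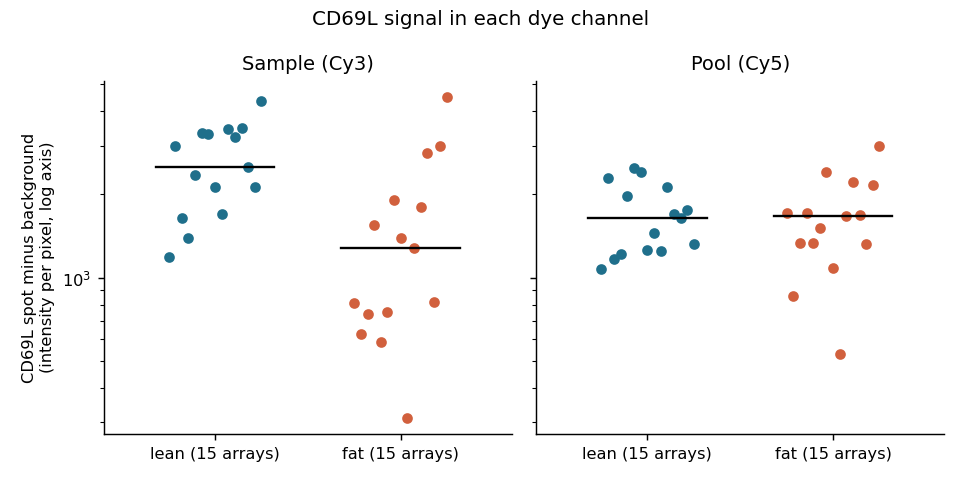
CD69L spot intensity minus local background per pixel (vertical axis, log scale) in the sample channel (left) and the pool channel (right) for the 15 arrays of each line (horizontal axis). Lines mark medians, which are 2519 and 1280 in the sample channel and 1646 and 1670 in the pool channel.

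The spots around the probe were looked at next. Of the 8 adjacent spots 7 were tested, and 0 passed between the lines by limma (0.696% of all probes did), with differences from -0.28 to 0.23. Their log2 ratios correlated with those of CD69L at -0.27 to 0.61, highest at the spot with the difference of -0.28. Among the other 302 tested probes of the grid block 1 passed, and their median difference was -0.00. That 1 was probe 18.6.20, which has no symbol and a line difference of -0.55. Its log2 ratios correlated with those of CD69L at 0.88, place 2 of 14647 probes. It is also among the 5 probes with fat arrays below lean arrays at all 4 ages. Why these 2 spots were alike was not tested.

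The authors' deposited table of log2 ratios also held CD69L, with values on the 15 lean arrays and on 10 of the 15 fat arrays. There lean arrays ran from 0.63 to 1.97 with a median of 1.37, and fat arrays from -1.71 to 0.93 with a median of -0.29. The lines overlapped in that table, and 5 fat arrays, from weeks 1, 3 and 5, had no value. Its normalization is not given in the sources used here, so its scale and centring are unknown. The direction is that of sample over pool.

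The gene was picked by its line difference over the ages and not by a change with age, so the changes with age were tested. As a mean of both lines CD69L rose by 0.60 from week 1 to week 7 (SE 0.15, 95% interval 0.29 to 0.91, 1.52-fold, limma, adjusted p = 0.0102). In the same comparison 2327 of 14648 probes passed (15.9%), 1304 of them higher (8.9%) and 1023 lower (6.98%), so that a call there is common. The fat arrays of week 7 all lay above those of week 1, but narrowly, with the lowest at -0.27 against the highest of week 1 at -0.30. The shared scan, at -0.52 in the file labelled fat, would fall among the week 1 values. How many probes were so separated was not counted. The lean arrays of these ages overlapped. No header day held arrays of both ages, so they could not be compared within a day, in either line. The week 7 arrays of a day that held no other age read 1.38 and 0.78 in lean and 0.23 and 0.31 in fat birds. The remaining week 7 arrays read 0.62 in lean and -0.27 in fat birds. How much of the rise goes with the day was not tested. The rise rested partly on single arrays. Without lean week 7 replicate 3, the highest array at 1.38, it was 0.49 (adjusted p = 0.0527), and with the shared scan counted in both lines 0.34 (adjusted p = 0.250).

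Neither line passed alone. Lean birds differed by 0.49 between week 1 and week 7 (SE 0.22, limma, adjusted p = 0.147), a comparison in which 5.52% of probes passed. Fat birds differed by 0.71 (SE 0.22, adjusted p = 0.0663, with 3.08% of probes passing). Without fat week 7 replicate 1 this became 0.89 (adjusted p = 0.0227), and without fat week 1 replicate 3 it became 0.51. Over the 30 fits with 1 array left out, the limma adjusted p for fat birds ran from 0.0227 to 0.473. Whether the lines differed in their change was not tested.

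The largest step was the last, and no single step passed. As a mean of both lines, the change was 0.03 from week 1 to week 3 (SE 0.14, limma, adjusted p = 1.00, 0.512% of probes passing) and 0.15 from week 3 to week 5 (SE 0.14, adjusted p = 1.00, 0.0614% passing). From week 5 to week 7 it was 0.43 (SE 0.15, unadjusted p = 0.0096, adjusted p = 0.225), a step in which limma called 0 probes (0%) and 2610 had an unadjusted p under 0.05. In lean birds the 3 steps were 0.03, 0.10 and 0.36, and in fat birds 0.03, 0.19 and 0.49. Weeks 5 and 7 shared a header day for 1 pair of arrays in each line. In lean birds that pair read 0.77 at week 5 and 0.62 at week 7, a fall. In fat birds it read -0.71 and -0.27, a rise. How much of the last step goes with the day was not tested. A test for any difference among the ages gave an adjusted p of 0.0458 (limma F test, 770 probes or 5.26% passing). It did not pass with the header day as a random block (adjusted p = 0.0878) or with the replicate block (0.0598). Leaving out 1 array ended that call in 21 of 30 cases, with adjusted p from 0.0193 to 0.216. The Cy3 signal was 0.90 higher at week 7 than at week 1 (SE 0.28) and the Cy5 signal of the pool 0.29 (SE 0.22).

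**Figure D3:**
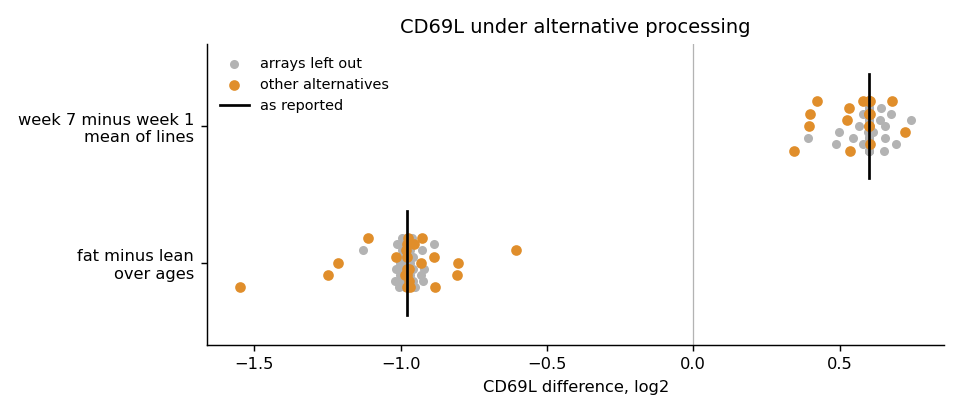
CD69L log2 differences (horizontal axis) between fat and lean birds over ages and between week 7 and week 1, in each processing alternative (points) beside the value as reported (black line). The difference between the lines stays below 0, from -1.55 to -0.60, and the change with age above 0, from 0.34 to 0.74.

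CD69L lies in the RefSeq gene order of assembly GRCg7b near other lectin-like genes, and the probes of its neighbours were looked at next. Of the 20 nearest genes, 10 on each side, 4 have a probe on the array, and 14 are named only by a LOC number. The nearest lectin-like gene with a probe is CLC2DL5, a C-type lectin domain family 2 member D-like gene at 8 places from CD69L. It has 5 probes. CLC2DL4, another gene of that name, has none. Lectin-like genes of such a cluster can be similar in sequence, and how much RNA of one binds the probe of another was not tested.

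One CLC2DL5 probe, 4.15.5, was lower in fat birds, by -0.61 (SE 0.12, 29 arrays, 1.53-fold, limma, adjusted p = 0.0136). Its lean arrays ran from -0.16 to 0.97 with a median of 0.38, and its fat arrays from -0.89 to 0.31 with a median of -0.16. The lines thus overlapped for this probe, while for CD69L they did not overlap at any age. From the youngest to the oldest birds the difference was -0.65, -0.65, -0.68 and -0.45, and within the 5 header days that gave a value it ran from -0.95 to -0.38. The header day of replicate 4 of weeks 1, 3 and 5 is left out of that range, because the spot of fat week 3 replicate 4 was not usable. On that day fat and lean read 0.07 and 0.14 at week 1, and 0.31 and 0.93 at week 5. The week 1 difference there was thus smaller than any in the range. The line difference of this probe no longer passed in 4 of 51 alternatives, with adjusted p up to 0.141, namely the scan kept as lean (-0.56, adjusted p = 0.0517), the authors' table (-0.71, 0.141), and the fits without replicate 1 (-0.62, 0.141) and without replicate 3 (-0.54, 0.0983). From week 1 to week 7 the probe differed by 0.28 (SE 0.17, adjusted p = 0.265).

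The other 4 CLC2DL5 probes did not pass between the lines. Probe 10.2.4 differed by -0.17 (SE 0.06, limma, adjusted p = 0.168) and probe 18.8.2 by -0.14 (SE 0.06, adjusted p = 0.270). Probes 26.16.14 and 45.2.2 differed by 0.04 (adjusted p = 0.679) and 0.05 (adjusted p = 0.731). The 5 probes assigned to 1 gene therefore disagreed in size, and 2 of them lay slightly on the other side of 0. Those 2, 26.16.14 and 45.2.2, were the brightest of the 5. In lean birds of week 1 their Cy3 signal stood 2.70 and 2.75 above the array median (log2), against 0.40 for probe 4.15.5. The files do not say which part of a transcript each probe holds.

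Of the remaining neighbours, GOLGB1, a large Golgi membrane protein, differed between the lines by 0.06 and 0.09 at its probes, and NME6, a nucleoside diphosphate kinase, by 0.13, none past the threshold. HCLS1, a signalling protein of blood cells, was usable on 10 arrays and not tested. In all, 1 of the 8 tested neighbour probes passed between the lines (0.696% of all probes), and 0 passed in limma from week 1 to week 7 (15.9% of all probes).

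**Figure D4:**
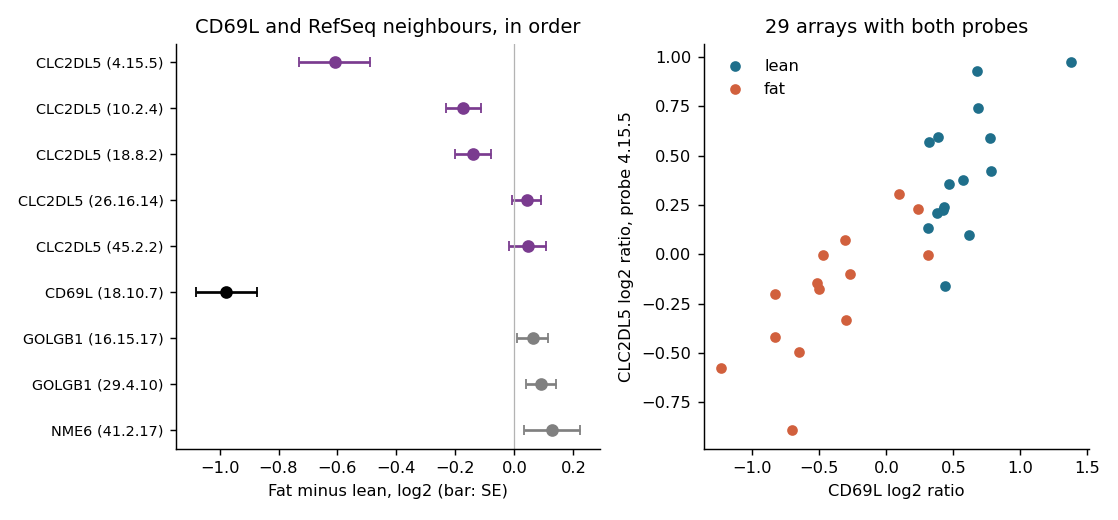
Left, fat minus lean log2 difference over ages (horizontal axis, bars are SE) of CD69L and the tested probes of its neighbours in RefSeq order (vertical axis, probe in brackets). Right, the log2 ratio of CLC2DL5 probe 4.15.5 against that of CD69L on 29 arrays. The CD69L point is at -0.98 and the 4.15.5 probe at -0.61.

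Across arrays, CLC2DL5 probe 4.15.5 was among the probes most like CD69L. Their log2 ratios correlated at r = 0.85 over 29 arrays, which is place 5 of 14647 probes. Part of any such r is the difference between the lines, the age and what the arrays share, such as the pool and the slide. The deviations from the 8 group means, which hold neither line nor age, correlated at 0.68 (place 12). Within the lean line r was 0.62 over 15 arrays, and within the fat line 0.74 over 14. For the other 4 probes r over all arrays was 0.47, 0.42, -0.24 and -0.25.

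By the brightest probe of each gene, the 5 genes most like CD69L over the 30 arrays were SUFU, CAD, TMEM47, LNPEP and VPS16. SUFU, a repressor of Hedgehog signalling, had r = 0.90, and its line difference was -0.99 (SE 0.11), with lean arrays from 0.17 to 1.29 and fat arrays from -1.03 to 0.24. Its deviations from the group means correlated with those of CD69L at 0.67. CAD, the enzyme that starts pyrimidine synthesis, had r = 0.77 and a line difference of -0.69, but its other 3 probes stood at -0.19, 0.10 and 0.08. TMEM47, a membrane protein of cell junctions, had r = 0.76, LNPEP, an aminopeptidase, 0.75, and VPS16, a subunit of lysosomal tethering complexes, 0.72. Over 5727 genes the median r was -0.04, and likeness over arrays that also differ by line follows in part from the line difference itself.

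The lowest r was that of RNF126, a ubiquitin ligase, at -0.75, with GIMAP6, a GTPase of lymphocytes, at -0.69, KCTD17 at -0.67, NENF, a secreted neurotrophic factor, at -0.67 and KCNA10, a potassium channel, at -0.66. Ranked by the deviations from group means alone, the highest genes were LAMTOR5, a part of the lysosomal Ragulator complex, at 0.76, and UQCRQ, a subunit of respiratory complex III, at 0.73. RSBN1L and PLAGL1, a zinc finger protein, followed at 0.70, and CHTF18, a clamp loader of replication, at 0.69. CPQ, a secreted carboxypeptidase and another leading line difference, was higher in fat birds by 0.66 and 0.65 at its 2 probes, which had r = -0.36 and -0.48. Of the 10 probes most like CD69L, 7 carry no symbol. All 10 were lower in fat birds, as were 6770 of all 14648 tested probes. The ranking used arrays of both lines and a gene picked for its line difference. This shared direction was thus largely built in, and nothing is read from it.

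Genes that share a family or a cell type with CD69L were measured on the same arrays, in lists chosen with earlier results known. Of all 14648 tested probes, 6770 were lower in fat birds and 0.696% passed between the lines. At that share, 0 calls is the likely count in lists this short. The C-type lectin-like proteins had 10 genes tested, with a median line difference of 0.09 (0.01 over all probes). Of these 0 passed lower and 1 passed higher in fat birds, against 0.437% and 0.259% of all probes. That 1 was ATRN, attractin, a transmembrane protein known from energy balance in mice, at 0.28 (SE 0.06, limma, adjusted p = 0.0301), which also rose by 0.35 from week 1 to week 7 (adjusted p = 0.0107). The line call of ATRN was lost in 12 of 50 alternatives, with adjusted p up to 0.253, and its call with age in 5 of 50. CLEC3B differed by 0.19, MRC2, a collagen-binding receptor, by 0.18, and PLA2R1 by 0.17. Of the 10 genes, 2 were lower in fat birds.

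Markers of lymphocytes were set beside CD69L. The list of T, NK and B lymphocyte genes was longer, but only 7 of them were on the array. Of these 7, 1 was lower and 6 were higher in fat birds, while 6770 of all 14648 tested probes were lower. The median of the 7 was 0.14, and 0 passed between the lines, against 0.696% of all probes. With so few genes and so low a share, 0 calls says little about lymphocytes. CD3E, a chain of the T cell receptor complex, differed by 0.17, IL2RG, a chain shared by cytokine receptors, by 0.25, and JCHAIN, the joining chain of antibodies, by 0.39. The mean log2 ratio of the 7 ran from -0.50 to -0.08 in lean arrays, with a median of -0.28, and from -0.51 to 0.15 in fat arrays, with a median of -0.11. From week 1 to week 7, BCL6, a transcription repressor of germinal centre B cells, was the 1 gene of the 7 that passed, against 15.9% of all probes, and it rose by 0.35. That call was lost in 11 of 52 alternatives, with adjusted p up to 0.552. Which cells carried CD69L in the gland was not tested.

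Of 16 macrophage and other myeloid genes, 3 were lower in fat birds, the median was 0.14 and 0 passed (0.696% of all probes did). CD74, the invariant chain of MHC class II, differed by 0.37 between the lines and rose by 0.70 from week 1 to week 7. MARCO, a scavenger receptor, fell by 0.69 over that time, and LAPTM5, a lysosomal protein of blood cells, fell by 0.52. These 1 higher and 2 lower of the 16 stand against 8.9% and 6.98% of all probes. The 7 red blood cell and thrombocyte genes lay between 0.02 and 0.15 between the lines, with 0 passing (0.696% of all probes did). From week 1 to week 7, 3 of the 7 passed downward, against 6.98% of all probes. The globin HBBA fell by 1.92, the globin HBA1 fell by 1.51, and the anion exchanger SLC4A1 fell by 0.55.

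Genes that accompany lymphocyte activation moved in both directions between the lines, and none passed. Of 9 tested, 4 were lower in fat birds, the median was 0.02 and 0 passed (0.696% of all probes did). EGR1, an early response factor, had the largest difference in size at -0.49 (limma, adjusted p = 0.0786). JUN, a subunit of the AP-1 factor, had the smaller adjusted p, at -0.28 (0.0623). JUN rose by 0.54 from week 1 to week 7, the 1 of 9 that passed then (15.9% of all probes did). Of 7 genes of CD69 partners and of sphingosine phosphate, 5 were lower, the median was -0.08 and 0 passed (0.696% of all probes did). GNAI2, a G protein subunit, differed by -0.28. SGPL1, the lyase that breaks sphingosine phosphate down, rose by 0.51 from week 1 to week 7, and KLF2, a factor that drives S1PR1 in mammals, fell by 0.32, against 8.9% of all probes higher and 6.98% lower. The call of KLF2 was lost in 13 of 52 alternatives, with adjusted p up to 0.256.

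Of 19 genes of pituitary hormones and lineages, 12 were lower in fat birds, as were 6770 of all 14648 tested probes. The median was -0.08, and 0 passed between the lines, against 0.696% of all probes. From week 1 to week 7, 6 of the 19 passed upward and 1 downward, against 8.9% and 6.98% of all probes. TSHB, the beta chain of thyrotropin, differed by -0.45 between the lines, the largest in size of this list.

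**Figure D5:**
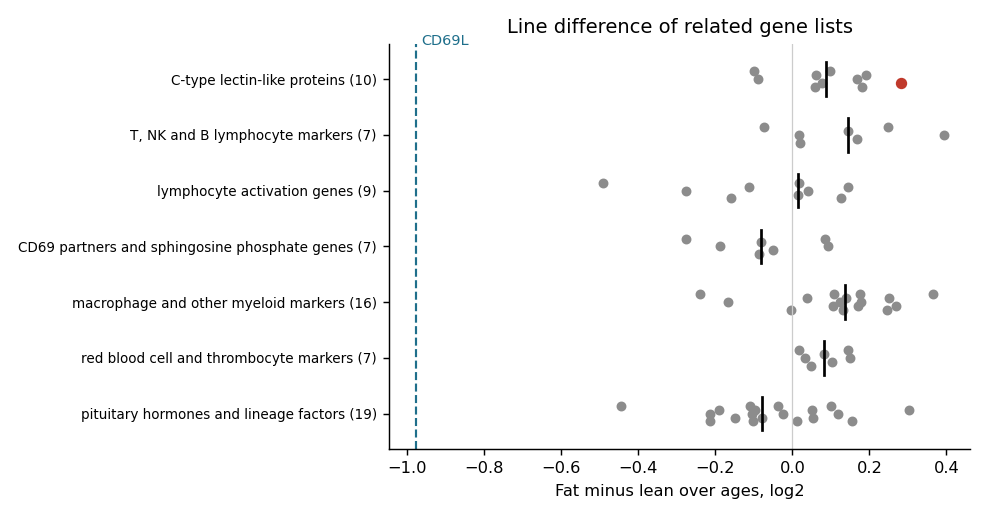
Fat minus lean log2 difference over ages (horizontal axis) of each tested gene (points) in 7 lists (vertical axis, number of genes in brackets), with the list's median as a black bar. ATRN, the 1 gene past an adjusted p of 0.05, is red, and the dashed line is CD69L at -0.98.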

How the data were processed

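Each array has a deposited file that TIGR Spotfinder 2.2.4 made, per the file headers. These deposited files give intensity and background for both dyes, spot area and a quality score, without normalization. A further table deposited by the authors holds normalized log2 ratios, by a method not given in the sources used here. Its column medians run from 0.04 to 0.19, and across probes each array's values in it correlated at 0.39 to 0.65 with those computed here.

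Intensities were divided by spot area, background-corrected (normexp, offset 50) and loess-normalized within arrays as Cy3 over Cy5. The file of fat week 7 replicate 2 came with background subtracted, which was undone. Spots with poor quality marks were dropped, and a probe was tested when usable on at least 23 of 30 arrays and on 2 in every group. A limma model (limma 3.58.1, statmod 1.5.0, R 4.3.3, plots with matplotlib 3.10.9) with 8 group means and 22 residual degrees of freedom gave two-sided tests with Benjamini-Hochberg adjustment over 14648 probes. The script was tested on simulated data. The number of arrays limits the precision. The p-values set a difference against the spread of arrays within groups, with the arrays taken as independent.

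Of the probes, 10601 carry 1 symbol and 8599 none. Of the former, 10455 matched the RefSeq table by gene ID. CD69L and the lists were chosen with earlier results of these data known. Other genes were named by rule: the 5 highest and 5 lowest correlations with CD69L, the 5 highest after group means, the measured RefSeq neighbours, SUFU, CAD and CPQ, and up to 4 genes of a list. Correlations are descriptions. Deviations from group means correlated at a median of 0.14 between same-numbered arrays of other groups (63 of 99 pairs above 0.1) and of -0.04 between other numbers (49 of 294). Same-numbered fat and lean arrays of an age had correlations from -0.09 to 0.32, 10 of 15 above 0.1. No label ties the numbers to a shared bird. Some numbers do share a header day: replicate 4 of weeks 1, 3 and 5 in both lines has the same day, as has replicate 2 of weeks 3 and 5. Since not every pair was above 0.1, the block was kept as an alternative. The main fit thus does not allow for what same-numbered arrays share.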

Additional observations from a re-analysis of the deposited data

Results flagged for a closer look

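Of 35 groups of 4 usable arrays examined for CD69L and CLC2DL5 probes, 2 held an array far from the others, and chance gives about 1 in 20. CLC2DL5 probe 10.2.4 had an array at -0.36 in fat birds of week 1, with the other 3 between 0.03 and 0.11. CLC2DL5 probe 18.8.2 had an array at -0.27 in fat birds of week 3, with the other 3 between 0.06 and 0.09. No group of CD69L was so marked.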

How the results depend on the processing

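The CD69L line difference kept its sign in all 58 alternatives run for it. For most of them the sign could not change. Among the 30 arrays no fat array reached a lean array of its age. Leaving out arrays or replicate numbers and comparing within header days thus fixed the sign. Settings that only change which probes are tested leave the value as it is. In the authors' table, which lacks the 5 fat arrays of lowest Cy3 intensity, the line difference was -1.55. By age it was -2.42 at week 1, -0.71 at week 3 and -1.97 at week 5 there. Within 1 header day the line difference was -0.60. At week 7 it was -0.48 with the shared scan kept as lean. It ran from -1.02 to -0.92 with 1 array left out and from -1.13 to -0.89 with a replicate number left out. The rise from week 1 to week 7 lost its call with all 32 arrays (0.34, adjusted p = 0.250), the scan kept as lean (0.42, 0.150), scaling between arrays (0.39, 0.120), the authors' table (0.72, 0.255) and array weights (0.40, 0.109). With 1 array left out it ran from 0.49 to 0.69, and with a number left out from 0.39, without replicate 3 (adjusted p = 0.136), to 0.74. In fat birds alone it passed with robust regression (0.64, adjusted p = 0.0244), and it ran from 0.51 to 0.89 with 1 array left out and from 0.44 to 0.88 with a number left out. It passed without fat week 7 replicate 1 (0.89, adjusted p = 0.0227) and without lean week 7 replicate 3 (0.71, 0.0450).

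The test over all ages had an adjusted p of 0.660 with all 32 arrays, 0.473 and 0.116 with the scan kept as lean or as fat, 0.253 with scaling, 0.0856 with poor spots kept, 0.665 in the authors' table, 0.0508 without the filter, 0.0598 with the replicate block, 0.0878 with a block for header day and 0.190 with array weights. It ran from 0.0193 to 0.216 with 1 array left out and from 0.0802 to 0.384 with a number left out. The step from week 1 to week 3 changed sign with scaling (-0.061), array weights (-0.0057), robust regression (-0.031), without fat week 1 replicate 3 (-0.072), without fat week 3 replicate 4 (-0.04), and without replicate 3 (-0.03) or 4 (-0.00079). It ran from -0.07 to 0.08 with 1 array left out and to 0.12 with a number left out. The step from week 3 to week 5 was -0.17 in the authors' table. Where a call or sign changed, the cause was not tested.

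The number of probes called between the lines was 37 with all 32 arrays, 38 with the scan kept as lean, 40 with poor spots kept, 36 in the authors' table, 299 with the replicate block, 155 with array weights, 1170 with robust regression and 19 with 1 probe per gene. It ran from 54, without lean week 3 replicate 4, to 300, without fat week 7 replicate 3, and from 24 to 37 without a replicate number. Leaving out 1 array moved it by over 1.5 times for 10 of the 30 arrays. From week 1 to week 7 it was 1315, with all 32 arrays, 1212 with a loess per grid block, 1225 with scaling, 571 in the authors' table, 940 with array weights, 3885 with robust regression and 1155 with 1 probe per gene, with 1013 to 3223 when 1 array was left out and 820 to 1947 when a number was. The test over ages called 377 in the authors' table, 2835 with robust regression and 372 with 1 probe per gene, with 507 to 1366 and 216 to 386 likewise. With the replicate block, no other call of CD69L changed.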
